A study of Sus scrofa with 30 samples.

Results

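The miR-532, miR-362 and miR-500 cluster was represented by 19 of the small RNA sequences that the study annotated in the porcine endometrium, beside 854 other sequences on the same list. The 19 sequences were selected on their names: every listed sequence annotated to a precursor named mir-532, mir-362, mir-500, mir-501, mir-502, mir-660 or mir-188 was taken, in any species and with any arm. Of these, 9 carried the name mir-532, 7 mir-500, 2 mir-362 and 1 mir-660, and 1 of the sequences named mir-500 was also named mir-501, whereas mir-502 and mir-188 had 0 sequences. The list itself had been chosen by read abundance, since the study kept sequences with at least 10 reads in most animals of at least 1 group. This filter was met by 18 of the 19 sequences in the deposited counts. It was met in all 6 groups by 8 of them and in 1 to 5 groups by 10. The shorter miR-362-5p form met it in 0 groups.

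Small RNAs were sequenced from 30 endometria of Hampshire x Duroc gilts aged 7 to 8 months from a single herd, 1 library per animal. The pregnant gilts, which had been inseminated 12 and 24 h after estrus, gave 5 libraries on day 12 (PD12), 5 on day 16 (PD16) and 6 on day 20 (PD20). Gilts in the estrous cycle gave 4 libraries on day 12 (CD12), 5 on day 16 (CD16) and 5 on day 20 (CD20). The conceptuses had been flushed out up to D16, whereas on D20 the trophoblast was dissected away from the tissue. The deposited files held between 2029729 and 6402731 reads per library (median 3111079). Between 1574834 and 5241838 of them belonged to the listed sequences. Levels are given as CPM, reads per 1000000 reads of the listed sequences, after TMM scaling, a correction for differences in library composition.

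A microRNA (miRNA) is cut from the 5′ arm (5p) or the 3′ arm (3p) of a hairpin precursor and guides silencing of mRNAs through its seed, the bases 2 to 8 from its 5′ end. Variants that begin or end at other bases than the reference, or canonical, form are called isomiRs, and a shifted 5′ end gives another seed. miR-532, miR-362, miR-500, miR-501, miR-502, miR-660 and miR-188 are neighbours on the X chromosome of mammals, in the human inside the gene of the chloride transporter CLCN5, and are often transcribed together. In the RefSeq gene table of the pig (Sscrofa11.1), MIR532, MIR500 and MIR362 followed each other on chromosome X between the deubiquitinase gene USP27X and CLCN5.

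The sequences that the results turn on were the following. Capitals mark the seed, and T stands for U as in the deposited files. ADD and DEL name bases added to or missing from the canonical form, at the 3′ end unless 5′ is written.
miR-532-5p, canonical: cATGCCTTgagtgtaggaccgt
miR-532-5p DEL T: cATGCCTTgagtgtaggaccg
miR-532-5p DEL GT: cATGCCTTgagtgtaggacc
miR-532-5p DEL CGT: cATGCCTTgagtgtaggac
miR-532-5p ADD TA: cATGCCTTgagtgtaggaccgtta
miR-532-5p 5′ DEL C: aTGCCTTGagtgtaggaccgt
miR-532-5p 5′ ADD A: aCATGCCTtgagtgtaggaccgt
miR-532-3p, canonical: cCTCCCACacccaaggcttgca
miR-500-3p, canonical: aTGCACCTgggcaaggattct
miR-500/miR-501: aTGCACCTgggcaaggattcc
miR-500-3p 5′ ADD A: aATGCACCtgggcaaggattct
miR-500-5p of 25 nt: tAATCCTTgctacctgggtgagagt
miR-362-5p of 24 nt: aATCCTTGgaacctaggtgtgagt
miR-660-5p of 22 nt: tACCCATTgcatatcggagttg

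These sequences show how narrowly the forms differ. The 19 sequences held 9 different seeds, and none of the other 854 listed sequences shared any of them. The seed of canonical miR-532-5p was carried by 6 of its 8 listed forms, whose summed level averaged 1149 CPM, while the 5′ DEL C and 5′ ADD A forms, each with a seed of its own, averaged 5.70 ± 2.66 and 5.33 ± 3.41 CPM (SD, n = 30). The miR-500/miR-501 sequence, named after the precursors mir-500-1, mir-500-2 and mir-501 of the horse, differs from canonical miR-500-3p by the substitution T21C, counted from the 5′ end, and cannot be assigned to 1 precursor. The 24-nt miR-362-5p and the 25-nt miR-500-5p, aligned from base 2 of the latter, were equal over the first 8 bases and differed at 4 of 24 positions.

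Canonical miR-532-5p dominated the cluster. It took 73.5% of the 95287 reads of the 19 sequences, and the 8 forms of miR-532-5p together took 91.8%. With a mean of 926.6 ± 388 CPM (SD, n = 30), it ranked 68th of the listed sequences. Next came miR-532-5p ADD T with 92.4 ± 42.9 CPM and the DEL GT and DEL T forms with 60.6 ± 38.6 and 60.5 ± 25.2 CPM. The summed miR-500-3p forms averaged 65.8 ± 23.4 CPM and the summed miR-362-5p forms 15.5 ± 6.47 CPM. The summed miR-500-5p forms averaged 8.08 ± 4.00 CPM, miR-660-5p 4.93 ± 2.21 CPM and miR-532-3p 4.02 ± 2.43 CPM. Thus 11 of the 19 sequences averaged below 10 CPM. The reads of both miR-532 arms differed widely, and there were 0.684 ± 0.223 reads of the 3p arm per 100 reads of the 5p arm on PD12 (SD, n = 5) and 0.186 ± 0.132 on PD20 (n = 6).

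**Figure D1:**
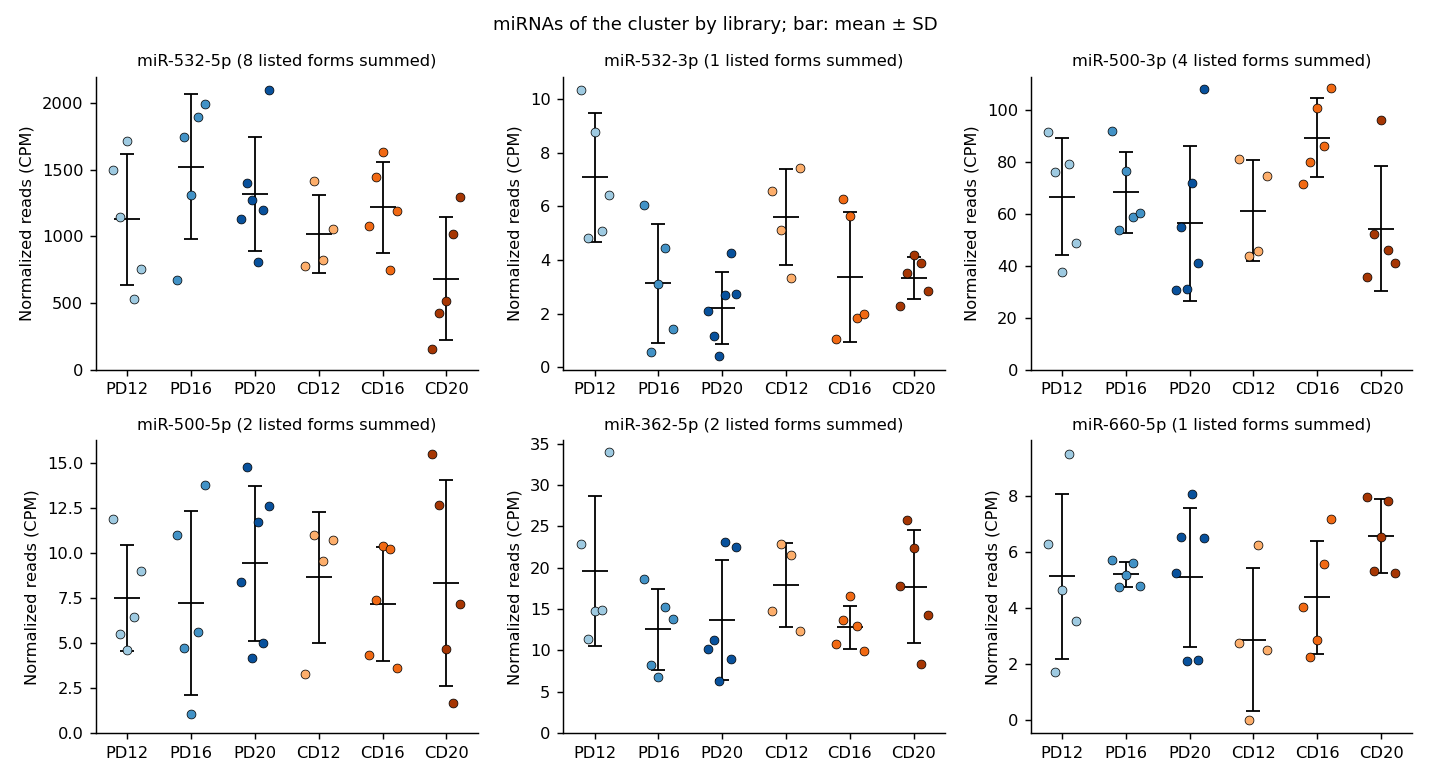
Normalized reads (CPM) of the 6 miRNAs of the cluster in each library, with the listed forms of each miRNA summed; each point is 1 animal, and the bars give the mean ± SD of the group. miR-532-5p lies far above the others (158 to 2101 CPM), and the 3p arm of miR-532 is highest on PD12 and CD12.

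Certain libraries stood apart before any comparison. In 28 libraries, between 11.5 and 26.7 reads carried C in place of the last base of canonical miR-532-5p (substitution T22C, a sequence outside the list) per 100 canonical reads. In PD20 replicate 3 and CD16 replicate 3 there were 0.0859 and 0.101. The same held for the 19 other canonical porcine sequences of the list that end in T and had more than 20000 reads. Both libraries lay below all 28 others for 19 of these 19, with at most 0.791 reads per 100, whereas the medians of the 28 libraries lay between 2.95 and 24.2. The miR-500/miR-501 sequence, which is canonical miR-500-3p with the substitution T21C, had 0 reads in PD20 replicate 3 and 0 in CD16 replicate 3, beside 16 and 93 reads of the canonical form. In the 28 libraries it reached 5.45 to 26.4 reads per 100. The cause was not tested, and the levels of miR-500/miR-501 are given with this limit. In another library, PD20 replicate 1, the markers miR-143 and miR-145 took 636004 CPM, against a median of 112963 CPM on PD20.

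**Figure D2:**
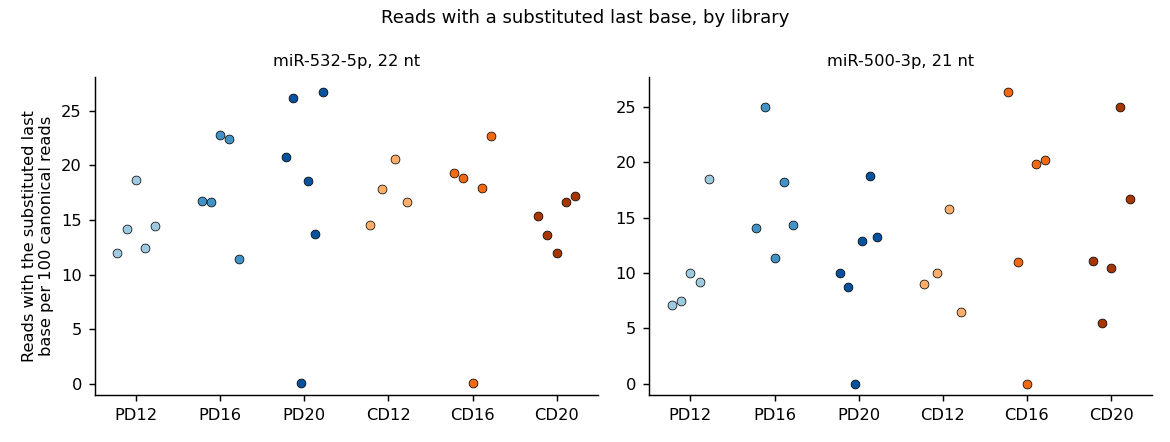
Reads with a substituted last base (T22C for miR-532-5p on the left, T21C for miR-500-3p on the right) per 100 reads of the canonical form, by library and group; each point is 1 animal. PD20 replicate 3 and CD16 replicate 3 lie at or near 0 in both panels, and the other 28 libraries lie above 5.

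During pregnancy, the shortest form of miR-532-5p was the only member called. A sequence was called when edgeR's quasi-likelihood F-test, adjusted over all listed sequences, gave an adjusted p under 0.05 and the log2 fold change (log2FC) was beyond 1 in either direction. PD16 and PD20 were tested jointly against PD12. miR-532-5p DEL CGT, which lacks the last 3 bases and keeps the canonical seed, was at 2.50, 1.03, 2.31, 0 and 1.28 CPM on PD12. It was at 4.93, 21.2, 6.19, 4.47 and 7.14 CPM on PD16. On PD20 its lowest, median and highest levels were 6.04, 9.81 and 21.3 CPM. Each of the 11 later libraries thus lay above all 5 of PD12, and 1 PD16 library, at 21.2 CPM, lay far above the others of its group.

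The log2FC of DEL CGT was 2.65 (SE 0.629) on PD16 and 2.98 (SE 0.613) on PD20, both against PD12, at an adjusted p of 0.0448 in the joint test. It was thus 1 of 19 members called in each comparison, where 0.229% (PD16 vs. PD12) and 0.802% (PD20 vs. PD12) of all listed sequences were called. The form was scarce, with 0 to 36 reads per library, and met the abundance filter of the study only on PD16 and PD20, where it was high, so its place on the list depended on this difference. When all 33081 deposited sequences with at least 10 reads over the 30 libraries were tested together, a choice blind to the groups, its log2FC was 2.47 and 2.84 at an adjusted p of 0.0458, while 0.617% and 0.913% of all sequences were called. The PD20 libraries, unlike those of PD16 and PD12, also held reads of the embryonic marker miR-302, whose part was not tested. The call was close to the threshold. With any 1 of 10 libraries left out (PD12 replicates 1, 2, 4 or 5, PD16 replicates 3, 4 or 5, or PD20 replicates 2, 3 or 5) its adjusted p lay between 0.0512 and 0.111, at a log2FC of 2.26 to 2.91 on PD16 and 2.64 to 3.29 on PD20. With all deposited reads as library size the adjusted p was 0.0586, with a replicate block it was 0.0520, and as a single contrast it was 0.129 on PD16 vs. PD12 and 0.0311 on PD20 vs. PD12.

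**Figure D3:**
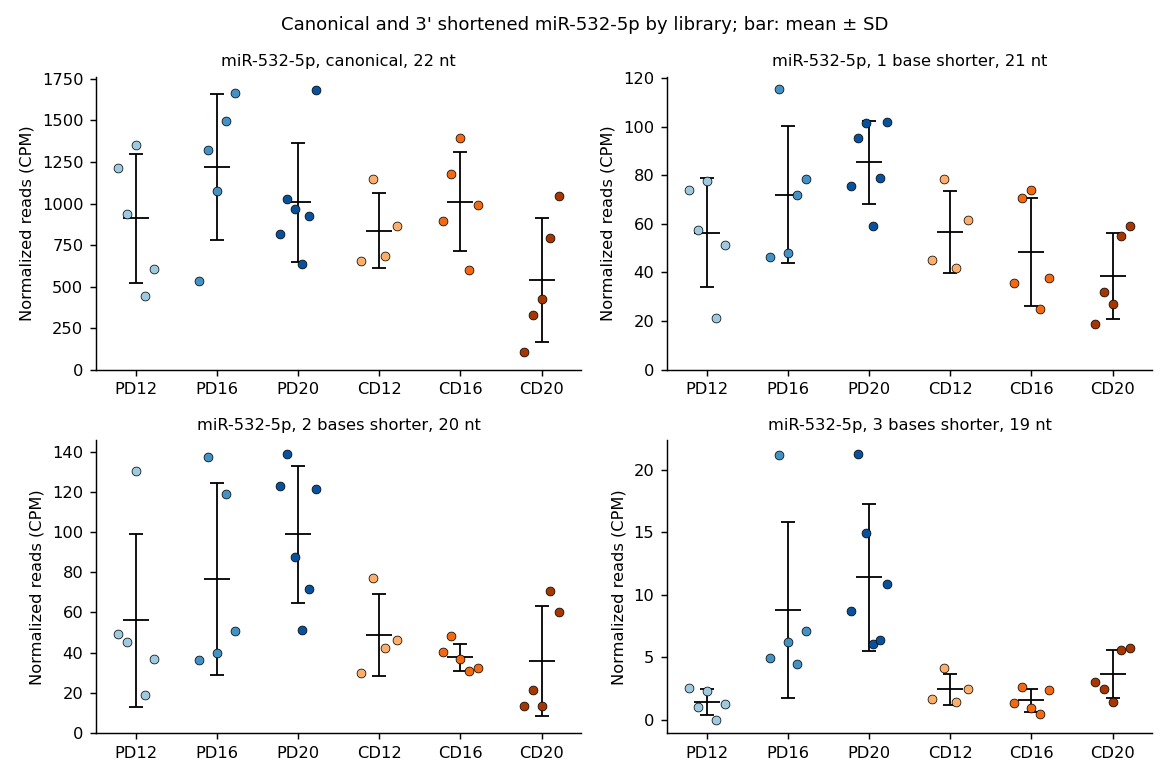
Normalized reads (CPM) of canonical miR-532-5p and of the forms that lack 1, 2 or 3 bases at the 3′ end, by library; each point is 1 animal and the bars give the mean ± SD. For the form lacking 3 bases, all PD16 and PD20 libraries (4.47 to 21.3 CPM) lie above all PD12 libraries (0 to 2.50 CPM), whereas the canonical form overlaps between these groups.

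The longer forms of miR-532-5p did not follow this pattern closely. The canonical form was at 1212, 938, 1353, 444 and 605 CPM on PD12. On PD16 it was at 534, 1320, 1078, 1496 and 1666 CPM. On PD20 its lowest, median and highest levels were 635, 945 and 1682 CPM. The 3 groups overlapped throughout, and the log2FC was 0.15 (SE 0.342) on PD20 vs. PD12. For DEL GT it was 0.83 and for DEL T 0.62, with an unadjusted p above 0.05 for both.

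The other arm of the same hairpin, miR-532-3p, had 10.3, 4.81, 8.78, 5.09 and 6.41 CPM on PD12. On PD16 it had 6.07, 0.590, 3.10, 4.47 and 1.43 CPM. On PD20 its lowest, median and highest levels were 0.415, 2.39 and 4.27 CPM. All PD20 libraries lay below all PD12 libraries, while PD16 overlapped with both. The log2FC was -1.05 (SE 0.534) on PD16 and -1.60 (SE 0.514) on PD20, at an adjusted p of 0.170 in the joint test, and only DESeq2 called it on PD20 vs. PD12 (adjusted p 0.0293). miR-532-3p had 1 to 33 reads per library and met the abundance filter only on PD12 and CD12, where it was high. DEL CGT and miR-532-3p were the 2 members without overlap on PD20 vs. PD12, and DEL CGT the 1 member without overlap on PD16 vs. PD12. Among all sequences, 3.32% and 1.83% had no overlap.

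At an unadjusted p under 0.05 the joint test held 2 of 19 members, both named above, against 18.7% of all sequences in either comparison. Against PD12, DESeq2 called 1 member on PD16 and 2 on PD20, where it called 1.04% and 6.37% of all sequences. Between PD20 and PD16, edgeR and DESeq2 called 0 members and 0 reached an unadjusted p under 0.05. Of all sequences, 0.573% and 1.74% were called and 14.2% reached that p. The median log2FC of the 19 members was 0.24 for PD16 and 0.05 for PD20, each against PD12, and -0.10 for PD20 vs. PD16, beside 0.05, -0.01 and -0.06 over all listed sequences.

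**Figure D4:**
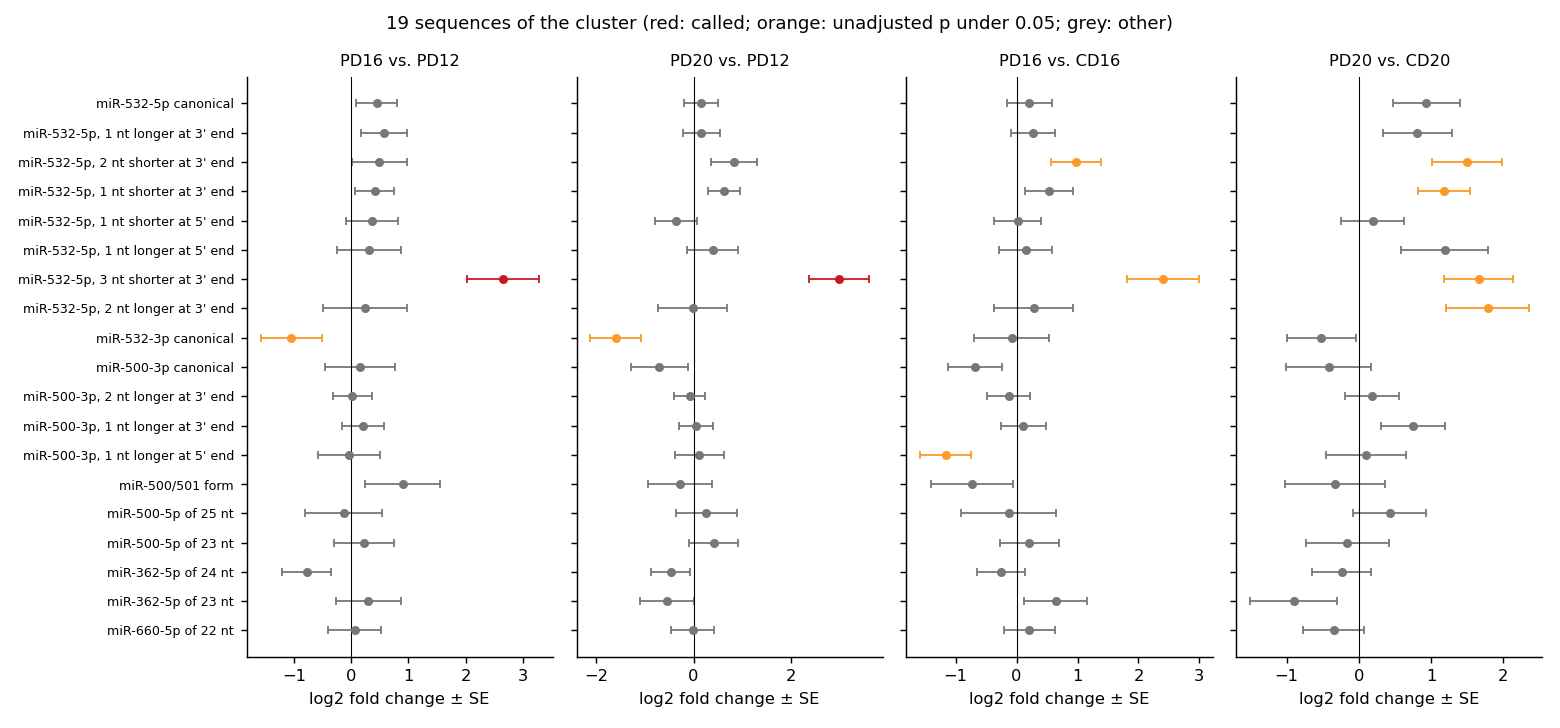
log2 fold change with its standard error for the 19 sequences in 4 comparisons, from the quasi-likelihood fit; red marks called sequences, orange an unadjusted p under 0.05 and grey the rest. The form of miR-532-5p lacking 3 bases at its 3′ end is called on PD16 vs. PD12 (2.65) and PD20 vs. PD12 (2.98), and 4 points on PD20 vs. CD20 are orange, that form among them (1.66).

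During the estrous cycle, 0 members were called by edgeR in any of the 3 comparisons. On CD16 vs. CD12 and CD20 vs. CD12, 0.115% and 0.458% of all sequences were called, and the joint test held 3 members at an unadjusted p under 0.05, against 23.9% of all sequences. DESeq2 called 0 members in either, and 1.96% of all sequences in each. On CD20 vs. CD16, 4 members reached an unadjusted p under 0.05, against 21.2% of all sequences. In that comparison edgeR called 0.458% of all sequences and DESeq2 8.99%, with 0 members by DESeq2.

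Canonical miR-532-5p was at 893, 1179, 1397, 601 and 989 CPM on CD16. On CD20 it was at 108, 329, 422, 791 and 1046 CPM. The CD20 values spread almost 10 times, overlapped with CD16 and held the lowest level of all 30 libraries. The log2FC was -1.03 (SE 0.463, adjusted p 0.203). The summed epithelial markers moved in the same direction, with 13309 ± 3507 CPM on CD16 and 8377 ± 2216 CPM on CD20 (SD, n = 5 each), and their part in the difference was not tested. The longest form, miR-532-5p ADD TA, lay at 2.42 to 4.72 CPM on CD16 and at 0.353 to 1.43 CPM on CD20 without overlap. Its log2FC was -1.77 (SE 0.595, adjusted p 0.107). It was the 1 member without overlap, against 4.93% of all sequences, and the only member that the likelihood ratio test called there (adjusted p 0.0495, 6.41% of all sequences called). When edgeR tested all 33081 deposited sequences, ADD TA was not called (log2FC -1.63, adjusted p 0.636). For miR-500-3p 5′ ADD A, whose seed differs from that of canonical miR-500-3p, the log2FC was -1.10 (SE 0.488, adjusted p 0.199). For miR-500/miR-501 it was -1.56 (SE 0.721, adjusted p 0.215). miR-500/miR-501 met the abundance filter on CD16 alone, so that its place on the list depended on the group that is high here. In the test of all 33081 deposited sequences, miR-500/miR-501 had a log2FC of -1.35 with an unadjusted p of 0.0756 and an adjusted p of 0.653. Without CD16 replicate 3, in which the latter had 0 reads, its log2FC was -1.86 (adjusted p 0.0916) in edgeR's test of the listed sequences. Without CD20 replicate 3, edgeR called 1 member, canonical miR-500-3p, and 4.12% of all sequences.

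With the forms of each miRNA summed, 3 of the 7 sums of the cluster reached an unadjusted p under 0.05 on CD20 vs. CD16, against 27% of all sums. These were miR-500-3p (log2FC -1.03, adjusted p 0.0882), miR-532-5p (-1.13, adjusted p 0.132) and miR-500/miR-501 (-1.74, adjusted p 0.139), the last being the single form listed through CD16. Thus 0 sums were called. The summed miR-500-3p was at 71.3 to 108 CPM on CD16 and 35.6 to 95.9 CPM on CD20, with 1 CD20 library inside the range of CD16.

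Between pregnancy and the estrous cycle on the same day, edgeR called 0 members on D12, D16 and D20, and 0%, 0% and 1.49% of all sequences. On D12 0 members reached an unadjusted p under 0.05, against 6.07% of all sequences. DESeq2 called 0 members and 0% of all sequences on D12. On D16 3 members reached that p, against 10.9%, and on D20 4 members, against 28.5%.

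DEL CGT was at 1.35, 2.59, 0.944, 0.464 and 2.39 CPM on CD16, below all 5 PD16 libraries. The log2FC was 2.40 (SE 0.586, adjusted p 0.212) on PD16 vs. CD16. The likelihood ratio test (adjusted p 0.0206) and DESeq2 (adjusted p 0.0233) called it as 1 member, where they called 0.573% and 0.855% of all sequences. DEL CGT met the abundance filter on PD16 but not on CD16, and in the test of all 33081 deposited sequences it was not called (log2FC 2.31, adjusted p 0.399). It was the 1 member without overlap, against 1.72% of all sequences. Without PD16 replicate 1, edgeR called it too (log2FC 2.57, adjusted p 0.0237), as 1 member beside 4.12% of all sequences. The other 2 were DEL GT, with a log2FC of 0.97 (SE 0.409, adjusted p 0.412), and miR-500-3p 5′ ADD A, which met the abundance filter on CD16 but not on PD16, with -1.16 (SE 0.418, adjusted p 0.336).

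On PD20 vs. CD20 the 4 members were all forms of miR-532-5p with the canonical seed, and their adjusted p lay between 0.0630 and 0.0665. All PD20 libraries also held reads of the embryonic marker miR-302 (2.37 to 41.2 CPM, at most 0.757 CPM on CD20). Epithelial markers averaged 11744 ± 3183 CPM on PD20 and 8377 ± 2216 CPM on CD20, and erythrocyte markers 2190 ± 1177 and 1076 ± 618 CPM. Means of stroma and muscle markers were also higher on PD20, those of leukocyte and endothelial markers on CD20. The part of these markers in the differences was not tested. The log2FC was 1.18 (SE 0.356) for DEL T, 1.5 (SE 0.483) for DEL GT, 1.66 (SE 0.478) for DEL CGT and 1.78 (SE 0.568) for ADD TA. ADD TA met the abundance filter on PD20 alone, and DEL CGT on PD16 and PD20 alone, so the place of both on the list depended on a group that is high here. DEL T was at 59.1, 87.1 and 102 CPM on PD20 (lowest, median and highest). On CD20 it was at 18.9, 31.7, 27, 55.1 and 59.0 CPM, so that the highest CD20 library almost met the lowest PD20 library. DEL CGT was at 3.03, 2.47, 1.40, 5.57 and 5.71 CPM on CD20, below all PD20 libraries. DEL GT was at 51.0, 104 and 139 CPM on PD20 and at 13.3, 21.2, 13.5, 70.7 and 60.0 CPM on CD20, with overlap. DEL T and DEL CGT were the 2 members without overlap, against 4.81% of all sequences.

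The likelihood ratio test and DESeq2 called each of the 4 at adjusted p between 0.0148 and 0.0353, in a comparison in which they called 14.2% and 15.2% of all sequences. In the test of all 33081 deposited sequences, blind to the groups, 0 of the 4 were called, against 0.674% of all sequences, and their adjusted p was 0.389 for DEL T, 0.267 for DEL GT, 0.325 for DEL CGT and 0.380 for ADD TA. edgeR called 4 members without PD20 replicate 4, where it called 13.3% of all sequences. It called 3 without CD20 replicate 4 and 2 without CD20 replicate 5, beside 11.9% and 6.76% of all sequences, and 3 in 1 fit of all 30 libraries, beside 11.2%. The canonical form was at 1008 ± 358 CPM on PD20 (SD, n = 6) and 539 ± 375 CPM on CD20 (n = 5), a log2FC of 0.93 (SE 0.463) with an unadjusted p of 0.0622. As a sum, miR-532-5p had a log2FC of 1.13 (SE 0.439, adjusted p 0.0996) and was 1 of the 7 sums with an unadjusted p under 0.05, against 29.2% of all sums. The median log2FC of the 19 members was 0.19, beside -0.03 over all sequences.

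Whether the difference between pregnancy and the estrous cycle changed with the day was tested as an interaction in 1 fit of the 30 libraries. For DEL CGT the log2 difference of PD16 minus CD16 exceeded that of PD12 minus CD12 by 3.24 (SE 0.873, unadjusted p 0.000782, adjusted p 0.313). For D20 against D12 it was 2.45 (SE 0.837, unadjusted p 0.00622, adjusted p 0.181). Thus 0 members passed at an adjusted p under 0.05 in the 3 contrasts, D20 against D12, D20 against D16 and D16 against D12, where 0.115%, 2.41% and 0% of all sequences passed. At an unadjusted p under 0.05 there were 2, 0 and 1 members, against 16.4%, 19.1% and 8.13% of all sequences. The second member on D20 against D12 was DEL T, with 1.17 (SE 0.532, adjusted p 0.275). Since DEL CGT met the abundance filter on PD16 and PD20 alone, both of its interactions use a form listed through the groups where it is high. In the test of all 33081 deposited sequences its interaction was 2.98 (SE 0.988, adjusted p 0.571) for D16 against D12 and 2.11 (SE 0.954, adjusted p 0.561) for D20 against D12. There, 0 members passed in the 3 contrasts, and 2 of all sequences on D20 against D12 and 0 in the others.

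The proportions of the miR-532-5p forms were then compared within libraries, which does not depend on the scaling. The DEL T, DEL GT and DEL CGT forms together gave 12.1 ± 2.83 reads per 100 canonical reads on PD12 (SD, n = 5), 13.4 ± 5.31 on PD16 (n = 5) and 20.1 ± 4.54 on PD20 (n = 6). In the estrous cycle they gave 12.7 ± 0.951 on CD12 (n = 4), 8.73 ± 1.17 on CD16 (n = 5) and 17.6 ± 8.88 on CD20 (n = 5). The mean log2 ratio on PD20 exceeded that on PD12 by 0.72 (exact two-sided permutation test, p = 0.0130, adjusted p 0.0623 over the 18 ratio tests). On CD16 it lay below CD12 by -0.55, without overlap (exact p = 0.0159), and on CD20 it exceeded CD16 by 0.89 (exact p = 0.0159), both at an adjusted p of 0.0623. For the 3p to 5p ratio of miR-532 the log2 difference was -2.04 on PD20 vs. PD12, without overlap (exact permutation p = 0.00433), and -1.99 on PD20 vs. CD20 (exact permutation p = 0.0173), again at an adjusted p of 0.0623. miR-532-3p met the abundance filter on PD12 and CD12 alone, so the comparisons with PD12 use a form listed through the group where it is high, and in the test of all 33081 deposited sequences its log2FC on PD20 vs. PD12 was -1.71 at an adjusted p of 0.405. None of the 18 ratio tests passed the adjustment. The remaining 13 had an adjusted p of 0.127 or more.

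DEL CGT was also set beside other shortened sequences of the list. The list held 37 other sequences that equal a porcine canonical miRNA without its last 3 bases. The log2FC of each minus that of its canonical form had a median of -0.21 for PD16 and 0.27 for PD20, each against PD12. For DEL CGT this difference was 2.20 and 2.83, and 0 of the 37 exceeded it in either comparison (highest 1.10 and 1.82). For DEL GT the difference on PD20 vs. PD12 was 0.67, with a median of 0.40 and 25 of 63 higher. For DEL T it was 0.47, with a median of 0.19 and 21 of 96 higher. On PD20 vs. CD20, DEL CGT had 0.73, with a median of 0.24, and 9 of 37 were higher. On PD16 vs. CD16 it had 2.19, with a median of -0.18 and 0 of 37 higher. On PD12 vs. CD12 it had -0.94, with 35 of 37 higher. In the estrous cycle DEL CGT had 2.10 on CD20 vs. CD16, again with 0 of 37 higher, although its own log2FC there was 1.07 (SE 0.570, adjusted p 0.276). On CD16 vs. CD12 it had -0.94, with 36 of 37 higher, and on CD20 vs. CD12 it had 1.16, with 2 of 37 higher. These are descriptions, since the listed sequences had been chosen by abundance. DEL CGT was the member called against PD12 and met the abundance filter on PD16 and PD20 alone. Its rank in comparisons with these groups thus restates that difference and is no separate test. The share of reads of at most 20 nt among the listed sequences was 1.53 ± 0.367% on PD12 (SD, n = 5), 1.49 ± 0.227% on PD16 (n = 5) and 1.87 ± 0.504% on PD20 (n = 6). On CD12, CD16 and CD20 it was 1.23 ± 0.381%, 1.63 ± 0.320% and 1.62 ± 0.420% (n = 4, 5 and 5). Reads of at most 19 nt, the length of DEL CGT, took 0.227 ± 0.0634% on PD12, 0.238 ± 0.0699% on PD16 and 0.280 ± 0.0975% on PD20, and 0.171 ± 0.0555%, 0.281 ± 0.0804% and 0.238 ± 0.0777% on CD12, CD16 and CD20. Their part in the results was not tested.

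**Figure D5:**
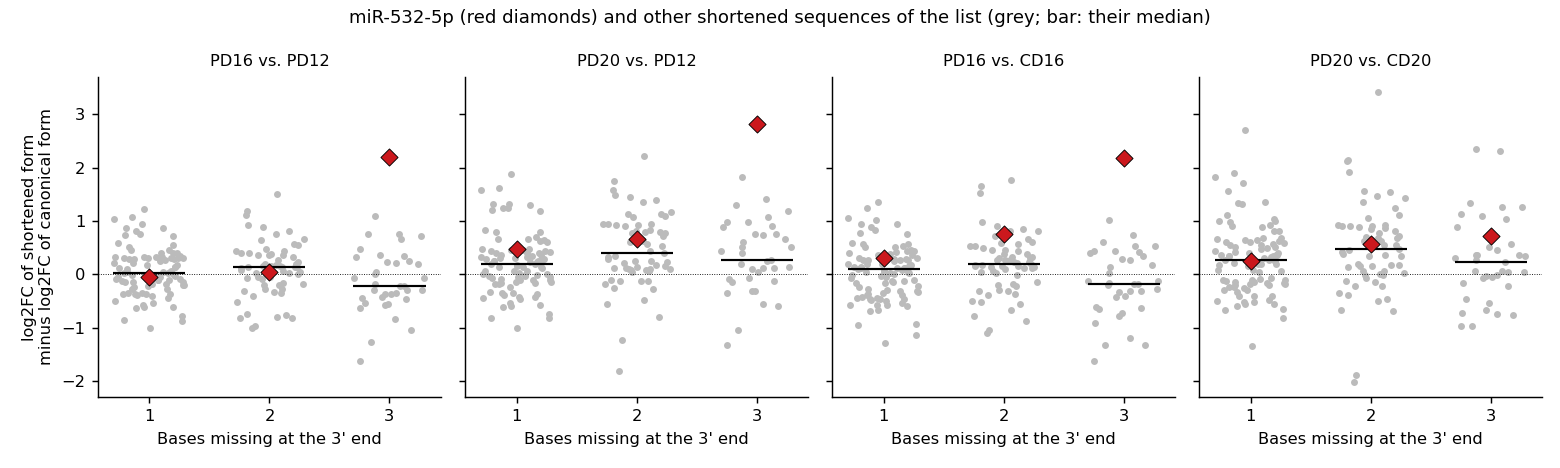
Difference between the log2 fold change of a 3′ shortened form and that of its canonical form, for miR-532-5p (red diamonds) and for the 96, 63 and 37 other sequences of the list that lack 1, 2 or 3 bases (grey points, black bar at their median), in 4 comparisons. The form of miR-532-5p lacking 3 bases lies above all grey points on PD16 vs. PD12 (2.20) and PD20 vs. PD12 (2.83), in which it was called. On PD20 vs. CD20 it lies among them (0.73).

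Beyond the list, deposited sequences that began with the same 17 bases as canonical miR-532-5p had 111992 reads, of which the 6 listed forms with this start held 77.4%. Of the unlisted ones, 15 had at least 100 reads. The forms below are shown since they were the most abundant or ended at the base where DEL CGT ends, with capitals here marking the 3′ bases that continue neither miR-532-5p nor its listed ADD TA form.
miR-532-5p to base 21 with C, which is the substitution T22C: catgccttgagtgtaggaccgC
miR-532-5p to base 22 with A: catgccttgagtgtaggaccgtA
miR-532-5p to base 19 with A: catgccttgagtgtaggacA
miR-532-5p to base 19 with T: catgccttgagtgtaggacT

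The T22C form had 11738 reads, 10.5% of the family, and the form with A after base 22 had 6066. The forms ending at base 19 with an unmatched A or T had 382 and 117 reads. With T, the level on CD20 was 0, 0.353, 0, 0 and 0.476 CPM (2 reads in all), and on PD20 it was 1.05, 7.69, 2.91, 3.02, 6.04 and 3.74 CPM (60 reads in all). All PD20 libraries thus lay above all CD20 libraries, in a comparison in which 4.81% of the listed sequences had no overlap. That share was not computed over all deposited sequences. With the summed reads of each group divided by its summed TMM-scaled library sizes, the ratio was 22 (exact 95% interval 5.84 to 186, counting error only). In the test of the 33081 sequences it was called on PD20 vs. CD20 (adjusted p 0.00965), where 0.674% of all sequences were called. On PD12 it was at 0 to 1.56 CPM and on PD16 at 1.52 to 3.35 CPM, with an adjusted p of 0.296 in the joint test against PD12.

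The form with an unmatched A after base 19 averaged 2.87 ± 1.5 CPM on PD12 (SD, n = 5), 3.28 ± 2.90 on PD16 (n = 5) and 11.1 ± 3.75 on PD20 (n = 6). Its PD20 libraries (4.88 to 14.4 CPM) lay narrowly above all PD12 libraries (1.36 to 4.81 CPM), with a log2FC of 1.84 and an adjusted p of 0.202 in the joint test. Of the listed sequences, 3.32% had no overlap between these groups. All reads of the family whose match ended at base 19, whatever followed, made up 0.432 ± 0.234% of the family on PD12, 0.905 ± 0.404% on PD16 and 1.75 ± 0.678% on PD20 (SD, n = 5, 5 and 6). In the estrous cycle they made up 0.556 ± 0.109% on CD12, 0.450 ± 0.167% on CD16 and 1.58 ± 1.02% on CD20 (SD, n = 4, 5 and 5). The group means were highest on D20 in both reproductive states, with a wide spread on CD20.

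No common variation of all miRNAs of the cluster was seen across the 30 libraries. Some of them were scarce, with 1 to 33 reads per library for miR-532-3p and 0 to 28 for miR-660-5p. The part of counting error in the low r values was not tested. Between the summed miR-532-5p and the other 5 summed miRNAs, Pearson's r of log2(CPM + 1) lay between -0.31 and 0.10, and no adjusted permutation p over the 15 pairs was below 0.367. Over pairs of 219 other summed miRNAs the median r was 0.02, with the 5th and 95th percentiles at -0.51 and 0.53. Within miR-532, the r between both arms was -0.05 (Spearman's rho -0.05). miR-500-5p and miR-362-5p, neighbours with like 5′ ends, had an r of 0.62 (permutation p 0.00024, adjusted p 0.0036) and a rho of 0.59 (permutation p 0.00069, adjusted p 0.01035). The r was 0.69 with group means removed and 0.51 without the 2 libraries farthest from the median of miR-500-5p. miR-532-3p and miR-362-5p had an r of 0.49 (permutation p 0.00629, adjusted p 0.0472) and a rho of 0.45 (adjusted p 0.0980). The r was 0.32 without the 2 farthest libraries and 0.35 with group means removed, at an adjusted p of 0.246, so that it passed only with the group differences included. miR-532-3p met the abundance filter on PD12 and CD12 alone, so this pair uses a form listed through the groups where it is high. The 24-nt miR-362-5p also had its highest means there (16.5 and 15.3 CPM).

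The 5 sequences outside the cluster most like canonical miR-532-5p were, by Pearson's r over the 30 libraries, isomiRs named after bta-mir-106b (0.85), ssc-mir-140 (0.83), cgr-mir-151 (0.82) and ssc-mir-148a (0.81), and canonical miR-148a-3p (0.84). The median r over the other 854 sequences was -0.03, with the 5th and 95th percentiles at -0.66 and 0.67, and the 5 named are the highest of these 854. These values are a description, and the libraries share their scaling. A further 43 listed sequences carried names of other X-linked miRNAs, such as miR-450, miR-374 and miR-98. Of these, 0 were called in any of the 9 comparisons, in which between 0% and 1.49% of all listed sequences were called. At such shares few calls or none would be made among 43 sequences, so the count says little about them. Their 4 most abundant sequences were a mir-450b form of 667 CPM, miR-374a-3p of 386 CPM, a mir-374a form of 238 CPM and miR-98 of 130 CPM. On PD20 vs. CD20 their log2FC was 0.03, 0.35, -1.09 and -0.79, and the median over the 43 was -0.43, beside -0.03 over all listed sequences. Over the 9 comparisons the median of the 43 lay between -0.48 (CD16 vs. CD12) and 0.50 (CD20 vs. CD16).

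Markers of cell types were followed as summed CPM, since in bulk tissue fewer cells of a type and less RNA per cell cannot be told apart. All 7 epithelial markers (the miR-200 family, miR-203 and miR-205) were listed, and their sum, led by miR-200c, averaged 12606 ± 2890 CPM on PD12 (SD, n = 5), 13213 ± 2406 on PD16 (n = 5) and 11744 ± 3183 on PD20 (n = 6). In the estrous cycle it averaged 9830 ± 1618 CPM on CD12 (n = 4), 13309 ± 3507 on CD16 (n = 5) and 8377 ± 2216 on CD20 (n = 5). As for the summed miR-532-5p, the group mean was highest on D16 in both reproductive states and lowest of all on CD20. Leukocyte markers (3 of 4 listed, miR-223 not among them, led by miR-142) averaged 55.8 ± 9.99 CPM on PD12, 83.2 ± 37.4 on PD16 and 110 ± 32.8 on PD20. On CD12, CD16 and CD20 they averaged 54.7 ± 21, 48.2 ± 18.7 and 122 ± 51.7 CPM. They ranged from 49.7 to 73.4 CPM over the PD12 libraries and from 70.8 to 153 CPM over the PD20 libraries, so that both ranges overlapped slightly. DEL CGT averaged 1.42, 8.79 and 11.4 CPM on PD12, PD16 and PD20 and 3.64 CPM on CD20.

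Erythrocyte markers (3 of 3, led by miR-451) averaged 1199 ± 426 CPM on PD12, 1421 ± 1217 on PD16 and 2190 ± 1177 on PD20. On CD12, CD16 and CD20 they averaged 972 ± 427, 1446 ± 935 and 1076 ± 618 CPM. The endothelial miR-126 averaged 3226 ± 490 CPM on PD12, 3406 ± 150 on PD16 and 3913 ± 606 on PD20. In the estrous cycle it averaged 2602 ± 778 CPM on CD12, 3197 ± 610 on CD16 and 4604 ± 293 on CD20. Muscle markers (3 of 4 listed, miR-133 not among them, led by miR-1) had medians of 2075, 2026 and 3853 CPM on PD12, PD16 and PD20 and of 1719, 2727 and 2054 CPM on CD12, CD16 and CD20. Their highest level was 40186 CPM, in a PD20 library. The part of these cells in the results was not tested. Of the 7 miRNA families fixed as embryonic or trophoblast markers, 1 was listed, miR-302, under Ensembl gene IDs alone and recognised here by its sequence in the assay list of the study. The other 16 sequences listed under Ensembl IDs alone were not matched to a marker. miR-302 had 0 reads on PD12, PD16, CD12 and CD16 and 0 to 2 reads per library on CD20. On PD20, when the trophoblast had been dissected away, it was at 2.44, 2.37, 4.57, 39.3, 17.1 and 41.2 CPM. It thus had reads in all PD20 libraries, and the part of embryonic RNA in the PD20 comparisons was not tested. Stroma and smooth muscle markers (miR-143 and miR-145) were at 105057 ± 21821 CPM on PD12. On PD20 the lowest, median and highest were 76379, 112963 and 636004 CPM, the highest being PD20 replicate 1. Without that library the log2FC of DEL CGT on PD20 vs. PD12 was 3.06 at an adjusted p of 0.0427, against 0.0448 with it.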

How the data were processed

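Small RNA libraries of bulk endometrium, 1 per gilt, had been prepared with the NEXTflex kit in 3 pools and sequenced on a Genome Analyzer IIx. The authors joined both runs, filtered reads by quality, removed adapters and reads that were short or held unknown bases, and collapsed identical reads. The counts deposited by the authors are raw reads per distinct sequence, without normalization, and each library sum is its depth. The listed sequences and their names came from a supplementary list of the study, whose fold change columns were not used. Counts were taken by exact match.

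edgeR 4.0.16 (R 4.3.3) was run on all listed sequences with TMM factors and the quasi-likelihood F-test, D16 and D20 jointly against D12 within pregnant or cyclic gilts, and pairwise between them, with Benjamini-Hochberg adjustment. The likelihood ratio test, DESeq2 1.42.0, RLE factors, all deposited reads as library size, a filter of 10 CPM, summed isomiRs, 1 fit of 30 libraries, a replicate block, single contrasts and each left-out library were alternatives. The test of all deposited sequences was added after seeing the data. Ratios within libraries took 0.5 added reads and an exact two-sided permutation test (scipy 1.17.1). Correlations used log2(CPM + 1) and 100000 permutations.

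The members and lists were chosen with earlier results of these data known. Named sequences were every member, the 5 most alike canonical miR-532-5p, sequences sharing a member's seed and at most 4 X-linked miRNAs of highest level. P-values measure the spread between animals. Intervals cover counting error only. The fits were tested on simulated data. Mature sequences were read from the deposited list, and no genome was used here.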

Additional observations from a re-analysis of the deposited data

Results flagged for a closer look

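In 8 of 114 tests of the 19 sequences within a group, 1 library lay farther from the others than Dixon's critical value allows, where chance gives about 1 in 20. For miR-532-5p, the canonical form was at 1682 CPM in PD20 replicate 6 (others 635 to 1026 CPM). DEL GT was at 130.3 CPM in PD12 replicate 3 (others 19 to 49.1 CPM). DEL CGT was at 21.23 CPM in PD16 replicate 2 (others 4.47 to 7.14 CPM), and without this library its log2FC on PD16 vs. PD12 was 2.02 at an adjusted p of 0.0247 in edgeR. PD20 replicate 6 was also high in miR-500-3p ADD GA with 51.07 CPM (others 11.9 to 24.2 CPM) and in miR-500-3p ADD G with 21.79 CPM (others 7.33 to 12.4 CPM). Canonical miR-500-3p was at 57.72 CPM in CD20 replicate 3 (others 6.68 to 19.4 CPM). The miR-500/miR-501 form was at 4.383 CPM in CD12 replicate 1 (others 1.28 to 1.65 CPM). The 24-nt miR-362-5p was at 15.1 CPM in CD16 replicate 3 (others 7.98 to 9.98 CPM).

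Outside the list, the unlisted form of miR-532-5p that ends at base 19 with an unmatched T averaged 2.541 CPM on PD16, above the highest CD16 library (0 to 1.48 CPM), but it was not called in edgeR's test of all deposited sequences (unadjusted p 0.0264, adjusted p 0.635). On PD20 it averaged 4.075 CPM, above the highest CD20 library (0 to 0.476 CPM), and was called there (adjusted p 0.00965).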

How the results depend on the processing

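Of the members called on PD16 vs. PD12 (1) and PD20 vs. PD12 (1), 0 were left in both with all deposited reads as library size, a filter of 10 CPM (which removed DEL CGT from the test), a replicate block or summed isomiRs, and 0 on PD16 vs. PD12 as a single contrast. Leaving out 1 library gave 0 to 1 in either. DESeq2 called 2 on PD20 vs. PD12, beside 6.37% of all sequences. Where the main test called 0, the likelihood ratio test gave 1 member on CD20 vs. CD16, 1 on PD16 vs. CD16 and 4 on PD20 vs. CD20. It called 6.41%, 0.573% and 14.2% of all sequences there. DESeq2 called 1 on PD16 vs. CD16 and 4 on PD20 vs. CD20, beside 0.855% and 15.2% of all sequences. With 1 fit of all 30 libraries, 3 were called on PD20 vs. CD20, where it called 11.2% of all sequences. Leaving out 1 library gave 0 to 1 on CD20 vs. CD16 (1 without CD20 replicate 3, beside 4.12% of all sequences). It gave 0 to 1 on PD16 vs. CD16 (1 without PD16 replicate 1, beside 4.12%). On PD20 vs. CD20 it gave 0 to 4 (4 without PD20 replicate 4, beside 13.3%). The cause of these differences was not tested.

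With 1 library left out, the log2 difference of the short to canonical ratio lay between -0.10 and 0.24 on PD16 vs. PD12 and between -0.19 and 0.00 on PD12 vs. CD12. For the 3p to 5p ratio it lay between -0.70 and 0.35 on PD20 vs. PD16, -0.96 and 0.09 on PD16 vs. CD16 and -0.12 and 0.55 on CD20 vs. CD12. These directions rest on single libraries. With group means removed, the r of miR-532-5p was 0.10 with miR-532-3p and -0.04 with miR-500-3p, against -0.05 and 0.10.

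Same-numbered libraries shared only a number: the correlation of their deviations ranged from -0.62 to 0.63. With a replicate block, DEL CGT had a log2FC of 2.57 and 2.96 at an adjusted p of 0.0520, and the block changed no other call. Of the 19 members, 8 averaged at least 10 CPM, and detection by abundance was not tested.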
